A study of Mus musculus with 33 samples.

Results

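Single ventricular cardiomyocytes of mouse embryos at embryonic day 14.5 (E14.5) were compared according to whether they carried the green cell cycle reporter mAG-hGem. The comparison takes in 21 of the 33 cells of the series: 10 cells labelled mAG-hGem positive and 11 labelled mAG-hGem negative, chosen by the labels for stage and reporter group alone. The other 12 cells, from postnatal day 5, were not analysed here. All mice, those that gave the negative cells included, carried the transgene, in which the fluorescent protein Azami Green is joined to geminin. Per the labels' protocols, ventricles were digested with enzymes, cells were sorted by flow cytometry, and a cell was kept when PCR on its cDNA found Tnnt2, the cardiac troponin T, and did not find a marker of non-cardiomyocytes. The mRNA of each cell was then copied many times as antisense RNA before sequencing. The sources used here name no animal, litter, strain or promoter for these cells. With no animals to serve as replicates, each group was treated as 1 sample and no p-value is given.

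Geminin blocks the relicensing of replication origins and is destroyed at the end of mitosis, so the geminin part of the FUCCI reporter glows from S phase until cell division and is dark in G1 and in cells that have left the cycle. Fetal heart muscle cells divide while they beat: they take their sarcomeres apart around mitosis, rebuild them afterwards, and lose the ability to divide soon after birth. The comparison asks which transcripts, beyond those of replication and mitosis, accompany the cycling state.

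Values are counts per 1000000 counts of a cell (CPM). A group's level is the summed counts of its cells over their summed total, and a difference is the log2 ratio of the positive over the negative level, with 0.5 count added to each side. Genes with at least 10 CPM in either group were compared, and a gene was called higher or lower at a 2-fold difference. A call was also recomputed with each of the 21 cells left out in turn, and is described as holding without any 1 cell when all of those values passed 2-fold. Counting intervals (95%) cover counting error only, since amplified reads are not independent molecules, and cells differ from each other by much more than these intervals. Because each library is scaled to its own total, more RNA per cell and a different mix of RNA cannot be told apart.

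Totals ran from 8.40 to 38.5 M counts (1 M is 1000000) in positive and from 5.99 to 34.4 M in negative cells, and a cell had between 5521 and 10753 genes with a read. The label of cardiomyocyte was set beside 11 marker genes, among them Tnnt2, by which the cells had been kept. Of these markers, 10 could be compared. Their median log2 ratio, which compares the groups and does not check identity, was 0.02, and none was called. Their summed level spanned 13220.1 to 35817 CPM, with a median of 20575, in positive cells and 14271 to 36162 CPM, with a median of 22769, in negative cells. None of the 8 endothelial markers reached 10 CPM in either group. Neither did the red blood cell and macrophage markers, of which only 4 of 10 and 2 of 9 were in the table. Of 8 epicardial markers only Wt1 could be compared, and it held as lower at -2.93. Of 8 fibroblast and mural markers compared, 7 (87.5%) were called lower, against 22.3% of all genes compared. Col1a1 and Tagln held as lower without any 1 cell. A pair of negative cells stood apart. N10 summed 46829 CPM over the 11 fibroblast and mural markers found in the table, against at most 240 CPM in any other negative cell and 59.7 CPM in any positive cell, while its 20981 CPM over the cardiomyocyte markers lay within the range of the others. N24 summed 23047 CPM over the S phase list, the most of any of the 21 cells, and 9057 CPM over the G2/M list, the most of the negative cells. Y-linked transcripts reached 10 CPM in 5 positive and 8 negative cells and Xist in 4 and 3 others, so each group held cells of both sexes.

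Of 7299 genes compared, 1179 (16.2%) were called higher and 1626 (22.3%) lower in positive cells. Without any 1 cell, 648 (8.88%) held as higher and 774 (10.6%) as lower. The shares called fell with the level of the gene: among 3620 genes at 10 to 50 CPM in their higher group, 10.1% held as higher and 13.9% as lower, and among 159 genes at 1000 CPM or more, 7.55% and 1.26%. The excess of lower calls did not carry over to the typical cell. When the median cell of each group replaced the sum, 1602 genes were called higher and 626 lower, and 595 of the 648 higher calls but 333 of the 774 lower calls still passed 2-fold in their direction. Many lower calls came from transcripts that were abundant in some negative cells and not in the median one. Only 25 genes (0.343%) had every positive cell above every negative cell, and no gene (0%) had every positive cell below every negative cell.

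**Figure D1:**
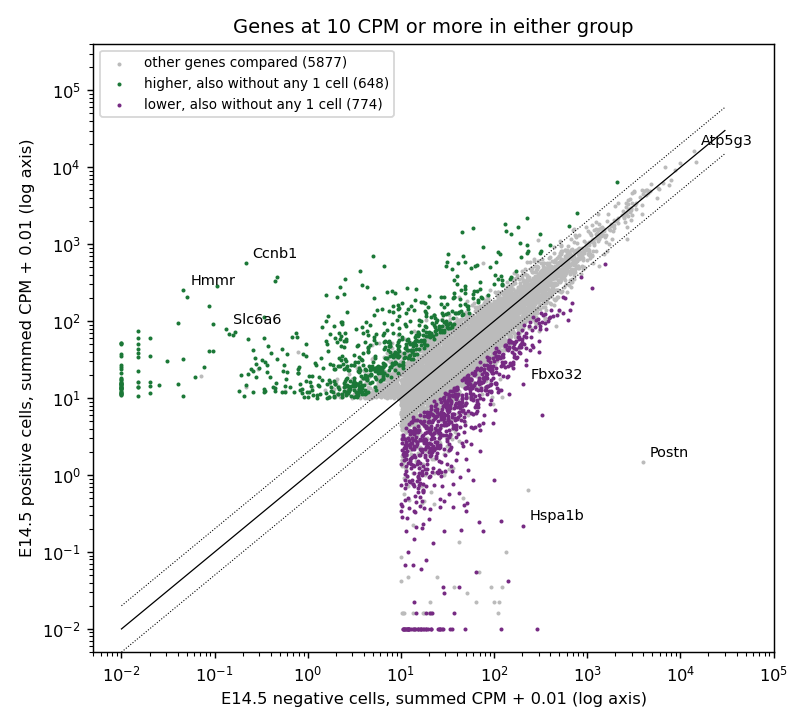
Summed CPM of each compared gene in the 11 negative cells (x axis) and the 10 positive cells (y axis), both on log axes after adding 0.01; 1 point is 1 gene, the solid line marks equal levels and the dotted lines 2-fold differences. The 648 higher calls (green) reach ratios above 1000-fold at low negative levels, the abundant genes at the upper right lie near the line, and the 774 lower calls (purple) lie below the lower dotted line.

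Transcripts of late cell cycle phases set the reporter groups apart. Hmmr and Ccnb1, like Fbxo32 below, were set beforehand as markers of this contrast. Their values describe the contrast and are not separate support for it. Hmmr, which encodes a microtubule-binding spindle protein, had 18.6, 245 and 515 CPM in the lowest, median and highest positive cell and 0, 0 and 0.119 CPM in the same ranks of negative cells. Its summed level was 251 CPM (249 to 254) against 0.0358 CPM (0.0144 to 0.0738), a log2 ratio of 12.68. Every positive cell stood above every negative one. Ccnb1, the cyclin that drives entry into mitosis, had 9.64, 213 and 1311 CPM in positive and 0, 0 and 1.25 CPM in negative cells, and a log2 ratio of 11.41. Gmnn, the gene of geminin itself, overlapped widely, with 29.7, 104 and 213 CPM in positive and 0, 60.03 and 262 CPM in negative cells and a log2 ratio of 0.44. Geminin is controlled by protein destruction as well as transcription, and the table cannot separate reads of the transgene from those of the native gene.

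Of the 55 G2/M genes compared, 52 (94.5%) were called higher and 0 lower, against 16.2% and 22.3% of all genes compared. Without any 1 cell, 48 held as higher. The median log2 ratio was 4.09, against -0.14 over all genes compared. The other mitotic apparatus list, which adds kinetochore, condensin, centralspindlin and tubulin genes, had 80 of 90 (88.9%) called higher and 2 (2.22%) lower, with a median of 2.97. Kif2c, a microtubule depolymerase of the kinetochore, was highest on the G2/M list at 13.24, and Anp32e, a histone H2A.Z chaperone, lowest at 0.23. Casc5, the kinetochore scaffold now named Knl1, had 8105 counts in positive cells, 6 of them at 10 CPM or more, and none in negative cells, and was thus at least 3342-fold higher when the negative group is given a floor of 3 counts in all. The tubulins Tuba1b and Tubb5, which build every microtubule of the cell, were abundant in both groups: Tuba1b had 912, 3491 and 9849.9 CPM in positive and 266, 1244 and 4279 CPM in negative cells. Its log2 ratio was 1.63, that of Tubb5 1.70, and that of Tubb4b 3.28. Ncapd3, a subunit of the condensin II complex, was the lowest abundant member at -0.61, short of a call.

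In the summed counts replication genes separated the groups less than the mitotic ones. The S phase list had 12 of 39 genes (30.8%) called higher and 5 (12.8%) lower, against 16.2% and 22.3% of all genes compared. Its median was 0.44, and 6 higher and 1 lower calls held without any 1 cell. Pcna, the sliding clamp of the replication fork, had 24.9, 1632 and 7655 CPM in positive and 2.33, 539.7 and 7218 CPM in negative cells, and its log2 ratio of 0.26 became 1.58 without N24. Rrm2, the regulated subunit of ribonucleotide reductase, was higher at 2.47, with 138, 432 and 971 CPM against 0, 21.3 and 699 CPM, and Atad2, a chromatin ATPase, at 2.74. Brip1, a helicase of DNA repair, was called lower at -3.14, but only N24 among negative cells had 10 CPM, and without it the ratio was 6.36. The uracil glycosylase Ung was the single gene of the list that held as lower, at -2.28. In the median cell of each group the S phase median was 4.01 over 31 genes, against 6.10 over 54 genes for G2/M. The median of all genes compared was 0.22 there. Without N24 the medians were 1.58 for S phase, 6.44 for G2/M and 4.88 for the other mitotic apparatus. The S phase median was 2.28 among the cells with title numbers 1 to 10 (6 positive and 5 negative) and -0.57 among those with 21 to 30 (4 and 6), whereas both other medians were at least 2.86 in each.

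**Figure D2:**
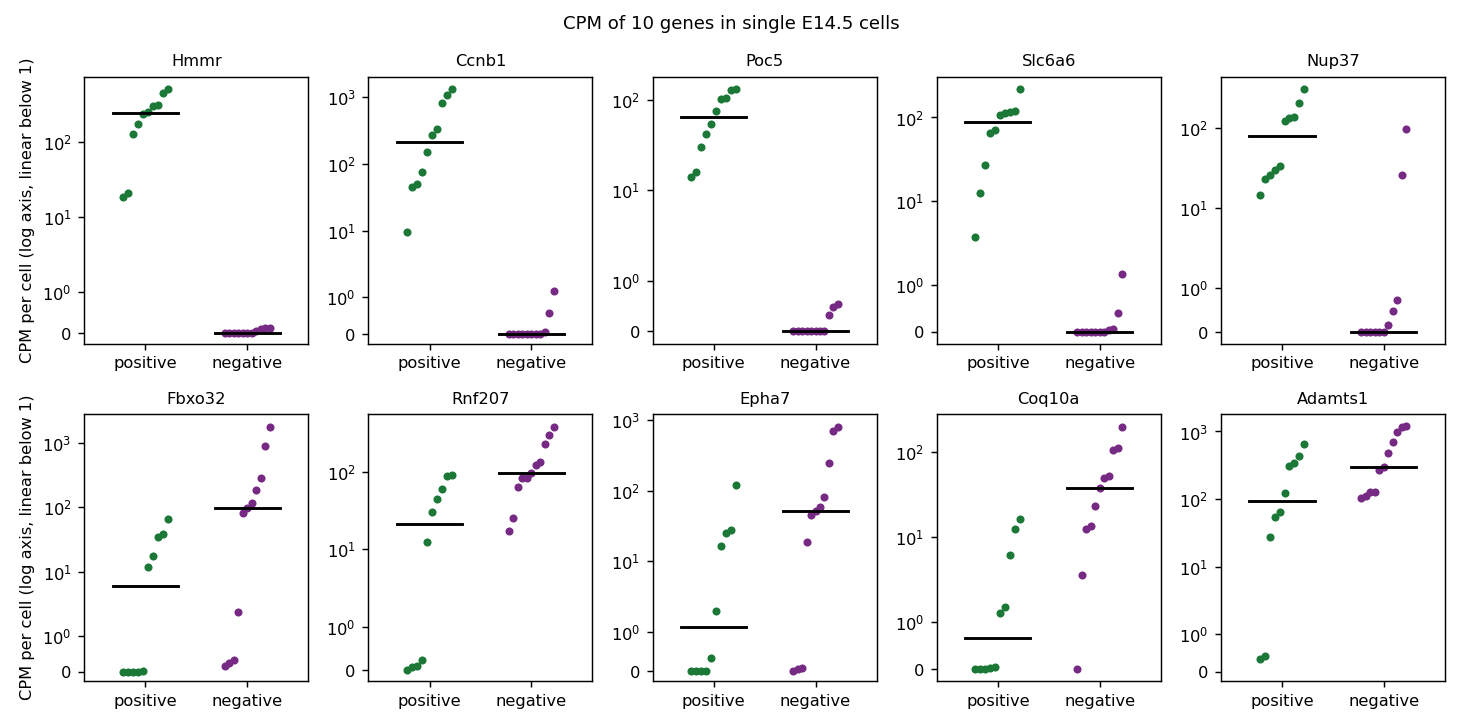
CPM of 10 genes in each of the 10 positive (green) and 11 negative (purple) cells; the y axes are logarithmic and linear below 1 CPM, points within a group are sorted by value, and black bars are medians. The upper row shows genes near 0 in most or all negative cells, and the lower row shows genes with a lower median in positive cells whose ranges overlap.

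Outside the 3 cell cycle lists lay 521 of the 648 stable higher calls (80.4%), a smaller share than the 97.5% of all genes compared. Poc5, a centriole protein, reached 10 CPM in all 10 positive cells, at 13.9, 65.1 and 132 CPM, and in no negative cell, where the highest value was 0.534 CPM. Slc6a6, the transporter that brings taurine into the cell, had 3.80, 88.7 and 217 CPM in positive and 0, 0 and 1.37 CPM in negative cells, a log2 ratio of 9.30. In neither gene did the groups overlap. Prr11 and Mxd3, a Myc-network repressor, were the other 2 of the 4 genes outside the lists without overlap, at 11.44 and 9.73, although the lowest positive cells had only 0.198 and 1.92 CPM. Among 13 genes at 10 CPM or more in at least 9 positive cells and in no negative cell, Poc5 and Slc6a6 were the only 2 outside the lists. No gene showed the mirror image in 10 or 11 negative cells.

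Several of the highest genes outside the lists are nonetheless known for roles in division. Mastl, the Greatwall kinase that keeps a phosphatase off mitotic substrates, had 221 CPM against 1.56 CPM and reached 10 CPM in 7 positive cells and in 1 negative cell, N24. Dbf4, the activator of the origin-firing kinase Cdc7, had 11.4, 346 and 849 CPM in positive and 0, 0.297 and 346 CPM in negative cells. Its log2 ratio of 3.26 rose to 5.63 without N10. Spdl1 and Nde1, which recruit dynein to kinetochores, were higher at 3.37 and 3.22. Mis18a, which loads the centromere histone, was at 10 CPM in all 10 positive cells and in 1 negative cell, N24, as was Pclaf (listed as 2810417H13Rik), a partner of PCNA. Wee1, the kinase that restrains Cdk1, was at 10 CPM in 10 positive and 2 negative cells, and its log2 ratio was 2.16. Cip2a (listed as C330027C09Rik), an inhibitor of a PP2A phosphatase, had 44.2, 199 and 935 CPM in positive cells and 0, 0 and 75.6 CPM in negative ones. The ratio of Mastl, 7.14, was 12.52 without N24, that of Mis18a, 2.45, was 8.73 without N24, and that of Cip2a, 5.99, was 10.11 without N5.

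Other genes of this group act elsewhere in the cell. Arl6ip1, which shapes the endoplasmic reticulum, had 118, 659.8 and 1962 CPM in positive and 0, 85.1 and 198 CPM in negative cells, a log2 ratio of 3.58 that stayed between 3.31 and 3.85 without any 1 cell. Msh3, a mismatch repair protein, was higher at 4.56, and Nrn1, neuritin, at 3.33. Msh3 reached 10 CPM in 6 positive and 2 negative cells and Nrn1 in 5 and 1, so neither marked every positive cell. Without N5 the ratio of Msh3 was 6.74, and without N21 that of Nrn1 was 11.94. Trim59, a ubiquitin ligase, was at 10 CPM in all 10 positive cells, at a median of 499 CPM, and in 2 negative cells. Zbtb41, a zinc finger protein, was at 10 CPM in 9 positive cells and 1 negative cell, with a ratio of 2.54, or 5.22 without N28. The long noncoding RNA C130080G10Rik was higher at 5.67, and N23 was the single negative cell with a read. The ratio of 2700099C18Rik, 10.96, was the highest outside the lists among genes within 2 limits. These were at least 50 CPM in the sum and the median positive cell, and no more than 50% of the counts in 1 cell. RefSeq lists 2700099C18Rik as a transcribed pseudogene, so its reads could be shared with a parent gene.

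Promoters were read for the genes that moved together. Late cell cycle genes are known to carry a cell cycle genes homology region, TTTGAA, bound by the MuvB complexes, often near CCAAT boxes, bound by NF-Y. Both words were searched on both strands in RefSeq windows (GRCm38.p6, the build named mm10 in the submitters' processing notes) from 250 bases before to 50 bases after each start, with any window of a gene counted. TTTGAA was present in 34 of 49 G2/M genes with a window (69.4%), in 44.3% of the other mitotic apparatus list, in 14.7% of all genes compared and in 20.2% of all 27025 genes with a window. CCAAT was present in 77.6% of G2/M genes against 43.9% of genes compared, and both words in 55.1% against 6.35%. Among the genes held as higher outside the 3 lists, TTTGAA was present in 20.1% and both words in 9.81%. The sarcomere lists had TTTGAA in 15.1%, the respiratory chain list in 8.82% and the immediate early and heat shock list in 13% of their genes with a window. On opposite strands the words can share 1 base, as they do in Kntc1 and Cenpw, and a match is a description of the letters only. The following 4 stretches are the 150 bases before the start of 3 genes and of Gpsm2. Candidates were genes held as higher, at 50 CPM or more in positive cells, with both words in that stretch. Windows on 1 chromosome were left out, and the first matching window of a gene was taken. The 3 genes had the highest ratios among the candidates, and Gpsm2 the highest outside the lists. Both words are in capitals on either strand (TTCAAA and ATTGG are their reverse complements).

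Parpbp: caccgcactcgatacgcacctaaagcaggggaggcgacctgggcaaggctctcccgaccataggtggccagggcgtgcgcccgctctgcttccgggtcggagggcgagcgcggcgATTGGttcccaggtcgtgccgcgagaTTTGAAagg

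Prc1: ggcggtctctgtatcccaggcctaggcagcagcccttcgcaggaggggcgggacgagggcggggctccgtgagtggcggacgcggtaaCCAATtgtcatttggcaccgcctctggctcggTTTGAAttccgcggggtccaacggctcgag

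Cdc20: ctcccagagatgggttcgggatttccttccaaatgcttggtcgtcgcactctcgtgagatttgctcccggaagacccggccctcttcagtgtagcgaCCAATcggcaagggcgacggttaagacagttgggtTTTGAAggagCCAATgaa

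Gpsm2: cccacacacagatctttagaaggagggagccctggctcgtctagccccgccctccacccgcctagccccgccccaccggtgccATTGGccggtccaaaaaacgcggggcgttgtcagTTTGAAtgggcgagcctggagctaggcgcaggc

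These stretches lie at chr10:88146942-88147091 (minus strand), chr7:80294326-80294475 (plus), chr4:118437344-118437493 (minus) and chr3:108722300-108722449 (minus) of GRCm38.p6. Parpbp, an inhibitor of homologous recombination, had a log2 ratio of 9.99 and Prc1, which bundles the microtubules of the spindle midzone, of 9.56. Cdc20, the activator of the anaphase-promoting complex, stood at 60.9 CPM against 0.332 CPM, a ratio of 7.51. Gpsm2, which orients the spindle and is on none of the lists, had 0, 44.3 and 277 CPM in positive and 0, 0 and 87.2 CPM in negative cells.

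Genes of the nucleus were called higher more often than lower. Of 40 nuclear envelope and nuclear transport genes, 16 (40%) were called higher and 2 (5%) lower, against 16.2% and 22.3% of all genes compared. Without any 1 cell 10 and 1 held, and the median was 0.63. Their summed level spanned 5217 to 10789 CPM, with a median of 9224, in positive cells and 2976 to 9861 CPM, with a median of 4468, in negative cells. N24 was the highest negative cell, and without N10 and N24 the list median was 1.16. The 3 members Tmpo, Lbr and Lmnb1 also belong to the cell cycle lists. Kpna2, an importin alpha, was highest, at 74.7 CPM against 4.35 CPM and a log2 ratio of 4.10. Nup37, of the ring-shaped Y complex of the nuclear pore, had 14.7, 79.3 and 308 CPM in positive and 0, 0 and 97.4 CPM in negative cells, and its partners Nup107, Nup160 and Nup85 were higher at 2.25, 2.58 and 2.20. The ratio of Nup37, 2.80, was 6.38 without N28. Rcc1, the exchange factor of the GTPase Ran, was at 3.10, and the exportin Xpo1 at 1.39. Ran itself, at 2492 CPM against 1297 CPM, just missed a call at 0.94. Going the other way were Nup98, a mobile pore protein, at -2.10, and the import receptor Tnpo1 at -2.52; in the median cell the ratio of Tnpo1 was positive, at 2.45. These genes, apart from Nup37, Kpna2, Ran and Tnpo1, were chosen after their values were seen.

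Among 43 chromatin and DNA methylation genes, 13 (30.2%) were called higher and 2 (4.65%) lower, against 16.2% and 22.3% of all genes compared, 9 and 1 without any 1 cell, with a median of 0.45. Rad21, a cohesin subunit, had 293, 810.1 and 2481 CPM in positive and 31.9, 195 and 1034 CPM in negative cells and a log2 ratio of 2.13. Smc1a, its partner in the cohesin ring, was at 2.93. The histone deacetylases Hdac1 and Hdac2 were higher at 1.53 and 1.30. Hdac2 reached 10 CPM in all but 1 of the 21 cells, so its difference was one of level rather than of presence. Cbx1, a heterochromatin protein, was at 3.60, but reached 10 CPM in only 6 positive cells and 1 negative cell, N21, without which it was at 8.46. Wapal, which releases cohesin from chromatin, was lower at -2.77. Of 44 splicing genes, 5 (11.4%) were called higher and 2 (4.55%) lower, and the abundant Hnrnpa2b1 was at 0.28.

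**Figure D3:**
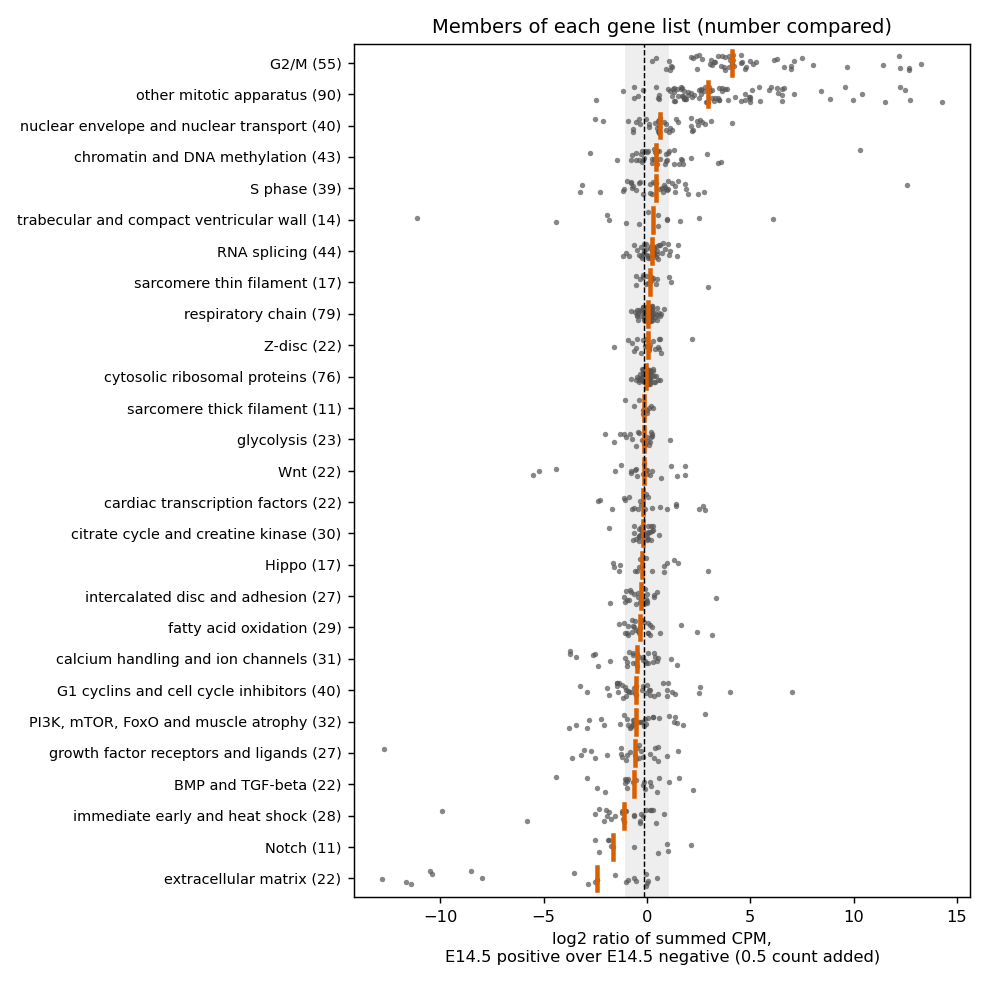
Log2 ratio (x axis) of each compared member of the 27 gene lists (rows, with the number compared); 1 point is 1 gene, orange bars are list medians, the grey band spans less than 2-fold and the dashed line is the median of all 7299 genes compared. The G2/M and other mitotic lists lie to the right, contractile, respiratory and ribosomal genes inside the band, and the Notch, immediate early and extracellular matrix medians to the left of it.

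Of the 774 genes that held as lower in positive cells, 773 (99.9%) lay outside the 3 cell cycle lists, as did 97.5% of all genes compared. Fbxo32, the muscle ubiquitin ligase atrogin-1 and a textbook target of FoxO factors, had 0, 5.95 and 65.7 CPM in positive and 0.168, 96.6 and 1778 CPM in negative cells. Its summed level was 15.1 CPM against 206 CPM, a log2 ratio of -3.77 that stayed between -4.76 and -3.16 without any 1 cell. It reached 10 CPM in 5 positive and 7 negative cells, while all 11 negative cells but only 6 positive ones had a read. The groups thus differed in their median and highest cells and in how many cells had any read. Rnf207, a heart-enriched ubiquitin ligase that acts on a potassium channel, had 10 CPM or more in all 11 negative cells, at 17.1, 97.1 and 382 CPM, against 6 positive cells, at 0, 21.4 and 91.3 CPM. Its log2 ratio was -2.71. Epha7, an ephrin receptor, had 0, 1.16 and 122 CPM in positive and 0, 52.4 and 807 CPM in negative cells.

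Differences in the share of cells brought out genes of smaller amount. Coq10a, a mitochondrial coenzyme Q-binding protein, was at 10 CPM in 9 negative and 2 positive cells, with medians of 37.7 and 0.655 CPM. Ccbl1, a kynurenine aminotransferase now named Kyat1, was also at 10 CPM in 9 and 2 cells, with a log2 ratio of -3.14. Def8 and Atp5sl, the second a complex I assembly factor now named Dmac2, were the only 2 genes at 10 CPM in at least 7 negative cells and in no positive cell. For Atp5sl the ranges still touched, from 2.33 to 35.8 CPM in negative and from 0.623 to 7.93 CPM in positive cells. Cnot10, of the CCR4-NOT deadenylase, and the carboxypeptidase Scpep1 were at 10 CPM in 8 negative cells and 1 positive cell each.

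Further lower genes came from scattered functions. Trit1, a tRNA-modifying enzyme, was at -3.93, the lowest ratio among genes outside the cell cycle lists with at least 50 CPM both in the sum and in the median negative cell and no more than 50% of the counts in 1 cell, and Kti12, of tRNA wobble modification, was at -2.60. Lama2, the laminin alpha chain of the muscle basement membrane, had a log2 ratio of -2.43, and Synj1, a phosphoinositide phosphatase of membrane traffic, of -2.45. Ociad2, Clip4, Dhx40, Zfp512 and Arel1 (listed as 1110018G07Rik) lay between -3.22 and -2.52. Clip4 was at 10 CPM in 8 positive and 10 negative cells, and the negative cell N21 alone had 4365 CPM, without which its ratio was -1.82.

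Contractile genes stood at nearly the same level in both groups. Of 11 thick filament, 17 thin filament and 22 Z-disc genes compared, only Mypn held as higher and 1 gene as lower without any 1 cell, while 8.88% and 10.6% of all genes did. The list medians were -0.13, 0.16 and 0.05. Actc1, cardiac alpha-actin, had 5239, 9769 and 18161 CPM in positive and 6069.6, 10505 and 16487 CPM in negative cells. Myl2, the ventricular regulatory light chain, had 1555, 3929.7 and 9550.3 CPM and 1714, 4578 and 10639.8 CPM, Tnnt2 had a log2 ratio of 0.01, and Ttn, the giant spring protein titin, of 0.20. The groups overlapped almost completely for each of these 4 genes. Myl4, an atrial and fetal light chain, was lowest among thick filament genes at 50 CPM or more, at -0.64, and Tpm1, tropomyosin, on the thin filament list at -0.54, both within 2-fold.

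The exceptions among contractile genes rested on few cells. Tnnt1, the slow skeletal troponin T, was called higher at 2.93, but its highest positive cell had 2067 CPM against a median of 45.7, and the ratio was 0.37 without G27. Tpm2 and Tpm4, tropomyosins, were called higher at 1.15 and 1.06 and did not hold without any 1 cell. Mypn, myopalladin, was higher at 2.18 but at 10 CPM in 4 positive cells and 1 negative cell only. Ankrd1 and Nexn, abundant Z-disc genes, were at 0.66 and 0.60, short of a call. Intercalated disc genes were similar: 1 of 27 (3.70%) was called higher and 4 (14.8%) lower, against 16.2% and 22.3% of all genes compared. Only the higher call, talin 1 (Tln1), held without any 1 cell. Ctnnb1, beta-catenin, was at 0.02, and Gja1, the gap junction connexin 43, at -0.22.

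Of 31 calcium handling and ion channel genes, 8 (25.8%) were called lower and 2 (6.45%) higher, against 22.3% and 16.2% of all genes compared. Without any 1 cell 6 and 1 held, and the median was -0.49. The following 3 abundant members had negative ratios within 2-fold. Pln, phospholamban, had 1063, 2442 and 3852 CPM in positive and 354, 3549.6 and 7898 CPM in negative cells, a log2 ratio of -0.65. Atp2a2, the calcium pump SERCA2 that phospholamban restrains, was at -0.67, and Ryr2, the release channel of the sarcoplasmic reticulum, at -0.98. Casq1, a calcium-storing calsequestrin, was at 11.1 CPM against 145 CPM and a ratio of -3.71. Hrc, a calcium-binding protein of the same compartment, was lower at -2.50. The calcium channels Cacna1d, Cacna1g and Cacna1h held as lower too, but the first was at 10 CPM in only 2 of the 21 cells. Calm3 and Calm2, which encode the same calmodulin protein, were the 2 higher genes, at 1.44 and 1.15, and Calm3 had 64.8, 156 and 245 CPM against 6.92, 60.4 and 139.6 CPM. Ryr2, Hrc, Calm2 and the calcium channels were chosen after their values were seen.

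Energy metabolism showed no difference of 2-fold in any of 79 respiratory chain genes, with a median of 0.06. Of all genes compared, 16.2% were called higher and 22.3% lower. Atp5g3, a subunit of the ATP synthase ring, had 8737, 14543 and 22283 CPM in positive and 8688, 11357 and 19827 CPM in negative cells. Among members at 50 CPM or more the extremes were Ndufa5 at 0.49 and Ndufb10 at -0.76, both of complex I. The sign of the list's median was negative with equal weights for cells (-0.10), with DESeq2 size factors (-0.077) and among title numbers 1 to 10 (-0.45). In the same settings the median of all genes compared was -0.14, -0.28 and -0.10, against -0.14 in the main setting. The list thus stayed above all genes with equal weights and DESeq2 factors, and fell below them among title numbers 1 to 10. Of 76 cytosolic ribosomal protein genes, again none was called, with a median of -0.05, which was -0.66 among title numbers 1 to 10 and 0.19 among 21 to 30. Ribosomal genes have many near-identical pseudogenes, so their counts are uncertain. Among 30 citrate cycle and creatine kinase genes only Ckmt2, mitochondrial creatine kinase, was called, as lower at -1.84, and this became 0.19 without N28. Slc25a4, the ADP/ATP carrier of heart mitochondria, had 7416, 10101 and 19945 CPM in positive and 5572, 15917 and 25469 CPM in negative cells.

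Glycolysis had 5 of 23 genes (21.7%) called lower and 1 (4.35%) higher, against 22.3% and 16.2% of all genes compared. Its median, -0.14, was equal to that of all genes. Only Pfkfb2, which makes the activator of phosphofructokinase, held without any 1 cell, at -2.01, and it was at 10 CPM in 4 positive and 3 negative cells. Its ratio was 3.60 among title numbers 1 to 10. Eno3 and Ldhb, the most abundant members, were at -0.73 and -0.45. Slc2a1, the glucose transporter GLUT1, had 22.4, 72.5 and 665 CPM in positive and 16.8, 179 and 1172 CPM in negative cells. Fatty acid oxidation had 3 of 29 genes (10.3%) called in each direction, below the 16.2% higher and 22.3% lower of all genes compared. Of these calls, 2 higher and 1 lower held without any 1 cell. Acsl4, a long-chain acyl-CoA synthetase, was higher at 2.44 and at 10 CPM in 8 positive and 4 negative cells, and Ppargc1b, a coactivator of mitochondrial genes, was at 3.12. Acadvl, which opens the oxidation of very long chains, was lower at -1.37, while its abundant relative Acadl had 3101 CPM against 1979 CPM, a ratio of 0.65.

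**Figure D4:**
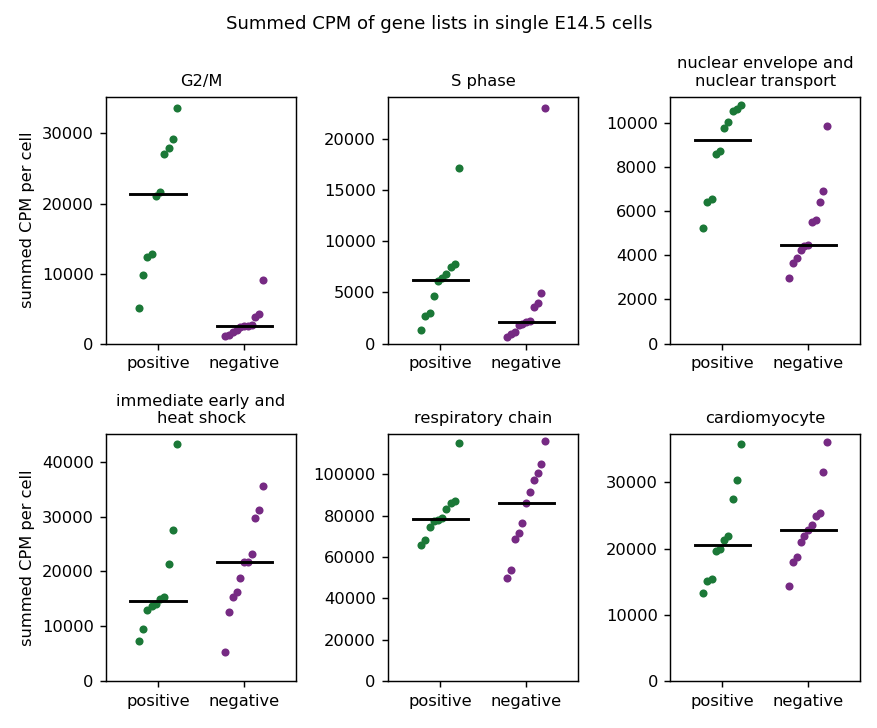
Summed CPM of 6 gene lists (y axes, from 0) in each of the 10 positive (green) and 11 negative (purple) cells, sorted within groups, with black bars at the medians. Positive medians are higher for G2/M, S phase and nuclear envelope genes, with N24 as the highest negative cell in all 3, and the groups overlap over nearly their whole range for the respiratory chain and cardiomyocyte lists.

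Regulators of the G1 phase were called in both directions, in shares near those of all genes. Of 40 G1 cyclins and cell cycle inhibitors, 7 (17.5%) were called higher and 12 (30%) lower, against 16.2% and 22.3% of all genes compared, and 3 (7.5%) and 6 (15%) held without any 1 cell, against 8.88% and 10.6%. The 3 stable higher genes were inhibitors by function: Cdkn2c and Cdkn2d, which block the cyclin D kinases, and E2f7, a repressor of E2F targets. Cdkn2d had 57.99, 238 and 516 CPM in positive and 0.116, 34.6 and 348 CPM in negative cells, a log2 ratio of 2.53, and Cdkn2c was at 4.01. E2f7 was at 7.01. All negative counts of E2f7 came from N24, and all but 1 of those of Cdkn2c from N25. Lower were Ccnd1, the G1 cyclin D1, at -1.86, and the activator E2f3 at -2.88. The growth arrest genes Btg1, Gadd45b and Gadd45g were lower as well, at -1.92, -1.45 and -1.47, and so was Plk2 at -1.42. Cdkn1c, the inhibitor p57, had 17.4, 196 and 652 CPM in positive and 98.99, 491 and 3679 CPM in negative cells; its lower call, at -1.33, did not hold without N21, where the ratio was -0.72. Btg2 was at -1.08, and at -0.76 without N10. The genes beyond Cdkn2d, E2f3, Cdkn1c and Btg2 were chosen after their values were seen. The list median, -0.51, was 0.17 among title numbers 1 to 10.

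Genes of the PI3K, mTOR and FoxO pathway, which links growth factors to protein synthesis and, through FoxO, to muscle atrophy genes, were called in shares near those of all genes: 6 of 32 (18.75%) higher and 8 (25%) lower, against 16.2% and 22.3%, with 3 and 5 held without any 1 cell. Rheb, the GTPase that switches on mTOR complex 1, was the most abundant member, with 559, 1006 and 1303 CPM in positive and 153, 460.2 and 899 CPM in negative cells; its ratio of 1.05 was 0.92 without N28, just under 2-fold. The catalytic subunits of PI3K moved apart: Pik3ca was higher at 1.73 and Pik3cb lower at -2.89. Besides Fbxo32, the lower genes that held were Sesn3, Ulk1, an autophagy kinase, Cblb, a ubiquitin ligase, and Pik3cb, between -2.89 and -2.09. Trim63, the other classic atrophy ligase MuRF1, was at -0.12, with 6.95, 151 and 313 CPM in positive and 0.374, 125 and 448 CPM in negative cells. Apart from Fbxo32, Rheb and Pik3ca, these were chosen after their values were seen.

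Receptors and ligands of growth factors were lower more often than higher in the summed counts, with 11 of 27 genes (40.7%) called lower and 1 (3.70%) higher, against 22.3% and 16.2% of all genes compared, and a median of -0.60. Without any 1 cell, 6 lower and no higher calls held. Igf2r, the receptor that clears IGF2, had 257, 615 and 1257 CPM in positive and 507, 1141 and 2279 CPM in negative cells, a log2 ratio of -1.02 just past the limit. Spry1, a feedback inhibitor of receptor signalling, was at 10 CPM in 1 positive and 4 negative cells, and Fgf9, a fetal heart growth factor, in 3 and 5. Hbegf and Igfbp5 held as lower at -2.50 and -3.05, although their median positive cells, at 27.1 and 1.74 CPM, were close to the median negative cells, at 18.1 and 5.13 CPM. In N21, the highest negative cell for both, they reached 1347 and 2483 CPM. Ephb2 had no count in positive cells and reached 10 CPM in 1 negative cell. Ephb3 was called higher at 1.53, which became -0.34 without G27. In the median cell the list's median was -0.20 over 18 genes, against 0.22 over all genes compared there. In the sum the median of all genes compared was -0.14. Insr, the insulin receptor, was lower at -1.23, while Igf1r and Pdgfa, at -0.48 and -0.52, were not called.

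BMP and TGF-beta signalling, which shapes the ventricular wall and acts through Smad proteins and Id genes, had 7 of 22 genes (31.8%) called lower and 3 (13.6%) higher, against 22.3% and 16.2% of all genes compared, and 4 and 2 held without any 1 cell. The Id genes, direct BMP targets that hold back differentiation, did not move as 1. Id1 was higher at 1.57 and at 10 CPM in 9 positive and 3 negative cells, while Id3, at -2.92, was lower in the sum only: its median positive cell had 51.3 CPM and its median negative cell 10.98 CPM, and N10 alone had 2071 CPM. Id2 was likewise lower in the sum, at -1.07, and not in the median cell, at 0.13. Fstl1, a secreted follistatin-like protein, had a ratio of -1.01, and -0.68 without N10. The receptor Tgfbr3, betaglycan, was higher at 2.25 and Acvr1, a BMP receptor, lower at -2.41. The list's median was -0.60 in the sum and -0.24 without N10. In the median cell it was 0.23 over 17 genes, against 0.22 over all genes compared there.

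Notch, which balances trabecular and compact growth of the ventricle, had 6 of 11 genes (54.5%) called lower and 2 (18.2%) higher. Of all genes compared, 22.3% and 16.2% were. The list median was -1.65. That direction was not seen in the median cell, where only 6 genes of the list could be compared. Their median was 1.29, against 0.22 over all genes compared there. Without N10 the list median in the sum was -0.58. Hes1, a Notch target, was an example: it had 0.0597, 72.9 and 427 CPM in positive and 0.119, 28.3 and 1291 CPM in negative cells, so its median was higher and its summed level lower in positive cells. Rbpj, the DNA-binding factor of the pathway, was lower by both, at -1.73 and with medians of 31.5 and 77.1 CPM. Hey2, a Notch-related repressor of the compact myocardium, went the other way, with 0.833, 295 and 406 CPM in positive and 0, 119.8 and 326 CPM in negative cells and a ratio of 0.99, just short of a call. Wnt genes had 4 of 22 (18.2%) called higher and 5 (22.7%) lower, near the 16.2% and 22.3% of all genes compared. Rspo3, a Wnt amplifier, was lowest among Wnt genes at 50 CPM or more, at -4.38 on the strength of 3 negative cells. Lgr4, its receptor, was at 0.70. Hippo genes had 3 of 17 (17.6%) called higher and 4 (23.5%) lower, again near the shares of all genes. Amotl1, a scaffold of the Hippo pathway, was higher at 2.94, whereas the YAP targets Ctgf and Cyr61 were called lower at -1.29 and -1.36 and fell short without N21 and N10, respectively.

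Cardiac transcription factors had 5 of 22 genes (22.7%) called in each direction, against 16.2% higher and 22.3% lower of all genes compared. Their median of -0.18 and mean of 0.04 differ in sign. Tbx20, which supports proliferation of fetal cardiomyocytes, had 409, 651 and 1307 CPM in positive and 0.0804, 318 and 1317 CPM in negative cells, a ratio of 0.97. Hand2 was higher at 2.80 and at 10 CPM in 6 positive cells and 1 negative cell, and Srf, the driver of actin and sarcomere genes, at 1.42 and in 9 and 3 cells. Tbx5 was lower at -2.37, in 2 positive and 5 negative cells, and Gata6, at -1.04, was called lower in the sum. Hopx, the most abundant member, was at -0.35. Hand2, Srf and Tbx5 were chosen after their values were seen. In the list of trabecular and compact wall genes, Nppa, the atrial natriuretic peptide of trabecular cells, was higher at 6.11 on the strength of 4 positive cells. Adamts1, a protease of the cardiac jelly, was at 10 CPM in all 11 negative cells, at 103, 303 and 1201 CPM, and in 8 positive cells, at 0.346, 93.7 and 660.2 CPM, a log2 ratio of -1.83.

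Immediate early genes, which respond to signals within minutes, and heat shock genes, which encode inducible chaperones, were mostly lower: 16 of 28 were called lower and none higher, and 9 held as lower without any 1 cell, against 22.3% and 10.6% of all genes. The median was -1.09 (-1.73 to -0.31 over the genes), and it was -1.05 and -1.33 within title numbers 1 to 10 and 21 to 30 and -0.73 without N10. Atf3, a stress-induced repressor, had 21.2, 129.7 and 1155 CPM in positive and 7.56, 691 and 2888 CPM in negative cells, a log2 ratio of -1.999. Dusp1, a MAP kinase phosphatase, was above 10 CPM in all 11 negative cells, at 30.6, 401 and 988 CPM, with 0, 81.2 and 743 CPM in positive cells. The AP-1 genes Fosb and Fosl2 were lower at -2.53 and -2.30, and Klf4 at -2.10. Hspa1b, an inducible HSP70, had no positive cell above 3.93 CPM, whereas 4 negative cells had at least 10 CPM and up to 746 CPM; its twin Hspa1a, with which it can share reads, was at -5.79. The 2 most abundant genes of the list went against it, Egr1 at 0.42 and the chaperone Hsp90aa1 at 0.29. The summed level of the list overlapped between groups, at 7304 to 43185 CPM, with a median of 14547, in positive cells and 5345 to 35550.1 CPM, with a median of 21642, in negative cells. Apart from Hspa1b, Egr1 and Hsp90aa1, the genes of this paragraph were chosen after their values were seen.

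Extracellular matrix genes had the lowest list median, -2.42, with 14 of 22 (63.6%) called lower and none higher. Of all genes compared, 22.3% were called lower and 16.2% higher. Without N10, 12 genes could be compared, their median was -0.55 and 5 were called lower. Postn, periostin, a matrix protein of fibroblasts, had 41228 CPM in N10 and reached 10 CPM in no other cell, and its log2 ratio of -11.39 became 0.76 without it. Hapln1, which links hyaluronan to its proteoglycans, changed in the same way, from -12.80 to 0.16. Sparc, a matrix glycoprotein that cardiomyocytes also make, was at 10 CPM in all 21 cells, with 37.2, 292 and 650.2 CPM in positive and 48.1, 271 and 1393 CPM in negative cells and a ratio of -0.91. Nid1, a basement membrane linker, was at 0.01.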

How the data were processed

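The deposited table holds raw read counts per gene and cell, whole numbers that the authors did not normalize, for 14862 gene rows; no molecular identifiers are stated in the sources used here. Per the submitters' processing notes, CASAVA 1.8.2, STAR 2.4.0j, HTSeq 0.6.1p1 and the build mm10 were used; their settings and the strand used in counting are not given in the sources used here, so reads of overlapping or near-identical genes are uncertain. 22 rows whose names a spreadsheet had turned into dates stayed in the totals and out of the gene results. Cells were grouped by the labels' stage and reporter group. Each cell is 1 sample in the series and no animal is named, so no test was made. Doublets were not called.

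Counts were summed per group and divided by the summed total (CPM, Python 3.11.15, numpy 2.4.6, pandas 2.3.3). Intervals at 95% are exact (Poisson for CPM, scipy 1.17.1), and ratios against a group at 0 are bounds against 3 counts over the group. Shares of cells are given as counts of cells at 10 CPM. Totals, from 5.99 to 38.5 M (1 M is 1000000), make counting error small against the spread between cells. A list's interval comes from the order of its genes and describes genes, not cells.

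The cells compared and all 27 gene lists were chosen with earlier results of these data known. Of 1126 list entries, 1108 were found in the table, and the others were not analysed here. The genes named are, outside the S phase, G2/M and other mitotic lists, the 12 highest and 12 lowest ratios among genes of at least 50 CPM in the sum and in the median cell of the higher group, with no cell over 50% of its counts; then the 6 genes in each direction with the largest difference in cells at 10 CPM; then in each list the 2 most abundant members and the highest and lowest ratio at 50 CPM or more; and Hmmr, Ccnb1, Fbxo32 and Gmnn. Hmmr, Ccnb1 and Fbxo32 had been set beforehand as markers of the contrast between the reporter groups. Genes outside these rules were picked with their values in view. Some genes are not reported here.

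On simulated counts with 200 of 14840 genes changed 4-fold, drawn from the means and totals of the E14.5 cells and so holding counting error only, 100% of the raised and 99% of the lowered genes were called, and no unchanged gene was. Alternatives were equal weights for cells, the median cell, edgeR (4.0.16, R 4.3.3) TMM factors and DESeq2 (1.42.0) size factors as scaling only, totals without the 20 most abundant genes, thinning to 5989622 counts, other limits on low levels, 5 counts added, each cell left out, N10 and N24 left out, and cells split by title number.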

Additional observations from a re-analysis of the deposited data

Results flagged for a closer look

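Single positive cells stood apart from the other 9 by Dixon's limit in 9 of the 35 measures tested, where chance flags about 1 in 20 groups. G27 had the deepest library, at 38.5 M counts (1 M is 1000000) against 24.01 M in the next cell. G6 summed 17145 CPM over the S phase list, against 7829 CPM in the next cell. G2 summed 5720 CPM over the cardiac transcription factors, against 4217 CPM, and 129.6 CPM over the epicardial markers, against 55.1 CPM. G25 summed 5993 CPM over glycolysis, against 3894 CPM, and G28 115277 CPM over the respiratory chain, against 87167 CPM. G1, the cell with the most genes detected, 10753, was highest in 3 marker lists at low levels: 15.0 CPM over the endothelial, 59.7 CPM over the fibroblast and mural and 3.72 CPM over the macrophage markers, against 5.997, 24.05 and 0.692 CPM in the next cells. Groups of 11 are not covered by this limit, so the negative cells N10 and N24 were not among the measures tested.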

How the results depend on the processing

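Thinning every cell to 5.99 M counts left 630 of the 648 higher and 740 of the 774 lower calls past 2-fold. Other limits are the 10 and 11 cells, the unnamed animals and amplification, whose part was not tested. All 1422 of these calls kept their direction under equal weights and thinning. The share was 79.96% in the median cell, 99.37% without N10 and N24, 87.48% among title numbers 1 to 10 and 98.66% among 21 to 30. Under other limits on level direction was fixed in advance, because they leave each ratio unchanged. Adding 5 counts was also too little to reverse a 2-fold ratio at 10 CPM. Of 134 genes named by the rule, leaving out 1 cell moved 60 by over 1.5-fold, 55 of them called at 2-fold.

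In the median cell 626 genes were called lower, and 1177 higher and 399 lower held without any 1 cell. At a limit of 1 CPM the calls were 2021 higher and 2904 lower, with 1087 and 1313 held; at 50 CPM they were 462 and 589, with 283 and 271 held. Title numbers 1 to 10 gave 1065 held higher calls and 21 to 30 gave 1199 held lower calls. The median of all genes compared, -0.14, was -0.28 with DESeq2 size factors and 0.22 in the median cell.

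List medians in the median cell were 4.01 for S phase, 6.10 for G2/M, 5.37 for the other mitotic apparatus, -0.15 for the respiratory chain, -0.26 for ribosomal proteins, -0.20 for growth factor receptors and ligands, 0.23 for BMP and TGF-beta, 0.55 for Wnt, 1.29 for Notch (reversed), 1.43 for nuclear envelope and transport and -0.21 for extracellular matrix. Some of these medians cover fewer genes than in the sum, such as 6 for Notch and 10 for extracellular matrix. The median of all genes compared was 0.22 in that setting. With DESeq2 size factors the respiratory chain was at -0.077, ribosomal proteins at -0.18 and nuclear envelope and transport at 0.50. The respiratory chain and ribosomal proteins were at -0.10 and -0.18 with equal weights and at -0.10 and -0.19 after thinning. Without N10 and N24 the medians were 1.58 for S phase, 6.27 for G2/M, 5.07 for other mitotic apparatus, -0.13 for the respiratory chain, 0.36 for splicing and -0.49 for extracellular matrix. Among title numbers 1 to 10 they were 2.28, 5.72 and 5.65 for S phase, G2/M and other mitotic apparatus, -0.32 for thin filament, -0.45 for the respiratory chain, -0.66 for ribosomal proteins, 0.10 for PI3K, mTOR, FoxO and atrophy, 0.17 for G1 cyclins and inhibitors and 0.46 for splicing; among 21 to 30 they were -0.57 for S phase, 0.20 for the respiratory chain and 0.19 for ribosomal proteins. Leaving out 1 cell gave 0.32 to 1.58 for S phase, 3.81 to 6.44 for G2/M, 2.83 to 4.88 for other mitotic apparatus, -0.10 to 0.13 for the respiratory chain, -0.16 to -0.0042 for ribosomal proteins and 0.15 to 0.36 for splicing. The cause of these shifts was not tested.

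Named genes reversed as follows. In the median cell Id2 was at 0.13, Id3 at 2.13, Hes1 at 1.33 and Tnpo1 at 2.45. Without N10 and N24 Brip1 was at 6.19 and Postn at 0.57. Among title numbers 1 to 10 Brip1 was at 8.42, Pfkfb2 at 3.60, Ckmt2 at 0.82 and Ephb3 at -2.36; among 21 to 30 Postn was at 1.08 and Hapln1 at 0.48. With 1 cell left out, Ephb3 ranged from -0.34 (without G27) to 2.42, Postn from -12.32 and Hapln1 from -14.89 to 0.76 and 0.16 (without N10), Brip1 from -3.80 to 6.36 (without N24) and Ckmt2 from -4.02 to 0.19 (without N28). No paired analysis was possible because the cells share only title numbers, the labels name no animal and no test was made.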
